A study of Mus musculus with 8 samples.

Results

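The genes described here are the 10 mouse Toll-like receptor genes Tlr1, Tlr2, Tlr3, Tlr4, Tlr5, Tlr6, Tlr7, Tlr8, Tlr9 and Tlr13, chosen by name and found by symbol in the count table. They are 10 of the 54532 genes listed, and 9 of the 12911 genes that had enough reads to be tested. Tlr5 was the member that did not pass the filter on low counts. RNA sequencing had been performed on bone marrow-derived macrophages (BMDMs), which are macrophages grown from bone marrow cells in a medium with macrophage colony-stimulating factor (M-CSF), in 4 WT and 4 Gsdmd-/- libraries. Gsdmd encodes gasdermin D, the protein that forms pores in the plasma membrane during pyroptosis, and the comparison asks which genes differ in macrophages without it. The study's methods give female C57BL/6J mice with an age of 6 to 8 weeks as the source of BMDMs, without naming the genotype. No sex, age or strain is given there for Gsdmd-/- mice separately. The cells differentiated for 6 days at 20 ng/ml M-CSF. No treatment was given to either genotype, so no Toll-like receptor ligand had been added. Gsdmd-/- is a knockout of the whole animal obtained from another laboratory and maintained as its own colony, whereas WT mice were purchased, and genotype and colony cannot be told apart. Nothing states that each library came from a separate mouse, so the p-values measure the spread between these libraries, which may be technical.

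Toll-like receptors are membrane proteins that recognize molecules of microbes and of damaged cells and switch on inflammatory and interferon genes. TLR1, TLR2, TLR4, TLR5 and TLR6 act mainly at the cell surface, where TLR2 pairs with TLR1 or TLR6 to bind lipopeptides, TLR4 binds lipopolysaccharide and TLR5 binds flagellin. TLR3, TLR7, TLR8, TLR9 and TLR13 act in endosomes, where they sense double-stranded RNA, single-stranded RNA, CpG DNA and, for TLR13, a stretch of bacterial ribosomal RNA. Apart from TLR3, they signal through the adaptor MyD88, and macrophages are among the cells that use most of the family.

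Levels are given as CPM, which are counts divided by the library's total and scaled with TMM factors to a common size, with the standard deviation over n = 4 libraries of a genotype. Total counts were between 14935114 and 16794810 per library, and where no read was counted up to 3 counts are allowed by counting error alone, equal to 0.177 to 0.199 CPM. The knocked-out gene matched the labels. Gsdmd (chr15:75862327-75867408) fell from 75.2 ± 14.1 CPM in WT to 16.2 ± 1.56 CPM in Gsdmd-/-, a log2 fold change of -2.22 (SE 0.139, edgeR quasi-likelihood test, adjusted p = 4.67e-05), with no overlap between the genotypes. All 8 macrophage markers, among them Adgre1 and Csf1r, were detected in every library, and their sum, most of which was Lyz2, was 16118 to 23916 CPM in WT and 19979 to 23920 CPM in Gsdmd-/-. Adgre1, which encodes F4/80, had 277 to 326 CPM in WT and 242 to 274 CPM in Gsdmd-/-, without overlap (log2 fold change -0.24, unadjusted p = 0.0182, adjusted p = 0.310 by edgeR). All 8 macrophage markers separated WT 1 and 4 from WT 2 and 3, in either direction, with 249 and 212 CPM of Mertk in WT 2 and 3 against 141 and 101 CPM in WT 1 and 4, and 7.08 and 6.65 CPM of Fcgr1 against 36.2 and 40.7 CPM as examples. Lists of other cells were low. The 5 neutrophil markers summed to 4.25 to 6.67 CPM over all libraries, nearly all from S100a8 with 70 to 109 counts, while Ly6g had 0 counts. The 4 markers of plasmacytoid dendritic cells summed to 0.928 to 2.92 CPM, mostly from Cox6a2 with 14 to 47 counts, while Siglech had 0 counts. The B cell, T and NK cell, mast cell and stromal lists summed to at most 2.07 CPM, with Ncr1 of NK cells at 0 counts. WT libraries 2 and 3 stood apart from the rest. On the first principal component, which held 43.6% of the variance, they lay at 45.4 and 38.8, whereas the other 6 libraries lay between -25.9 and -7.19. The monocyte markers Ly6c2 and Ccr2 summed to 46.2 and 43.7 CPM in WT 1 and 4, to 3.84 and 3.05 CPM in WT 2 and 3, and to 19.7 to 26.6 CPM in Gsdmd-/-. The 6 markers of conventional dendritic cells summed to 52.3 and 48.5 CPM in WT 2 and 3, mostly from Clec9a, and to 16.7 to 22.6 CPM in the other 6 libraries, with Flt3 at 0 counts in all libraries but Gsdmd-/- 2, which had 2. In bulk RNA, fewer cells of a type and less RNA per cell cannot be told apart. Results are therefore also given without WT 2 and 3, and, as a counterpart chosen after seeing the data, without WT 1 and 4.

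Tlr13 was the most abundant receptor gene in both genotypes. To compare levels between genes, CPM were divided by the length of each gene's exons in kilobases, merged over its transcripts. On this scale of CPM per kilobase of exon, Tlr13 averaged 73.6 in WT, which was higher than 95.4% of all genes tested. A second tier was formed by Tlr2 at 25.0, Tlr7 at 23.6, Tlr8 at 20.8 and Tlr4 at 15.6. The third tier held Tlr6 at 5.62 and Tlr1 at 4.89, followed by Tlr9 at 2.24 and Tlr3 at 1.96. The ranges over the 4 WT libraries did not overlap between Tlr13 and Tlr2, between Tlr4 and Tlr6, and between Tlr3 and Tlr5, and they overlapped between all other neighbours in this order. In Gsdmd-/- the means were 79.3 for Tlr13, 28.4 for Tlr7, 19.1 for Tlr8, 17.2 for Tlr2, 14.8 for Tlr4, 5.04 for Tlr6, 3.52 for Tlr1, 2.10 for Tlr3 and 1.90 for Tlr9. By these means Tlr2 ranked after Tlr13 in WT, and after Tlr13, Tlr7 and Tlr8 in Gsdmd-/-. In Gsdmd-/- the ranges of Tlr8 and Tlr2, of Tlr2 and Tlr4, and of Tlr3 and Tlr9 overlapped, and those of all other neighbours did not. The length that is used mattered for the order of Tlr4 and of Tlr3 and Tlr9. For Tlr4 the difference is large, as its exons hold 5556 bases and its coding part 2710. Per kilobase of coding length, Tlr4 averaged 32.0 in WT, level with Tlr2 at 32.0, and Tlr3 at 3.77 came before Tlr9 at 2.52. In Gsdmd-/- the order by coding length was Tlr13, Tlr7, Tlr4, Tlr2 and Tlr8, with Tlr4 at 30.3 and Tlr2 and Tlr8 level at 22.1.

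**Figure D1:**
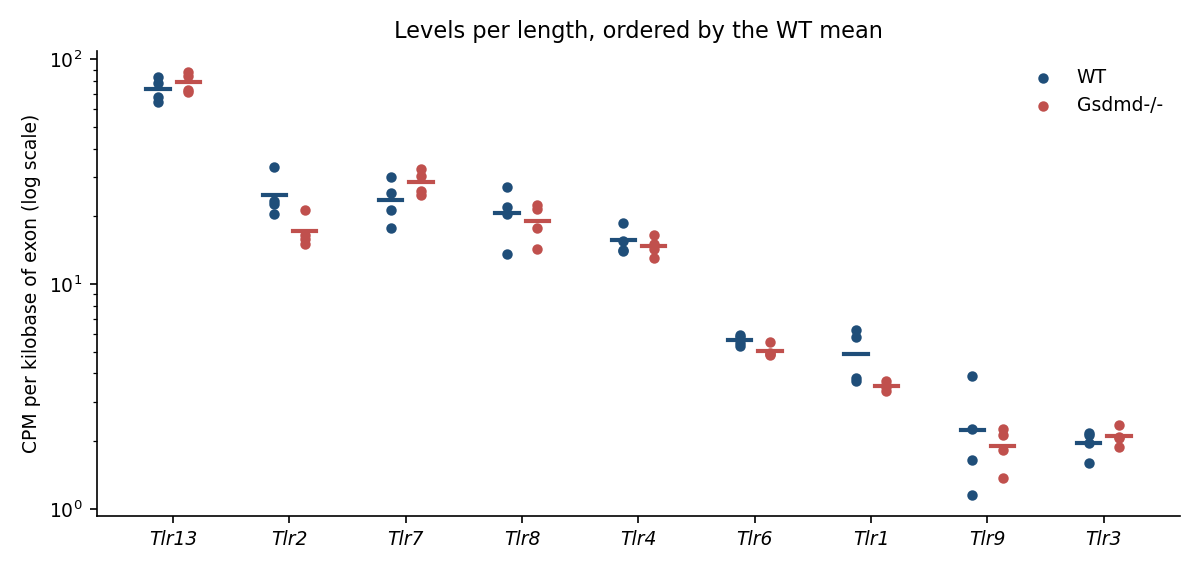
Level of each tested receptor gene in CPM per kilobase of exon on a log axis, with a point for each library, a bar for the mean of 4 libraries, WT in blue and Gsdmd-/- in red. Tlr13 lies above the other 8 genes in both genotypes, at means of 73.6 and 79.3, and Tlr5, which has reads in 2 of 8 libraries, is not drawn.

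Tlr5, the flagellin receptor gene (chr1:182954788-182976044, plus strand), was near 0. It had 2 counts in WT 3, 2 counts in Gsdmd-/- 2 and 0 counts in the other 6 libraries. All 8 values are at or under the limit of 3 counts, so no fold change is given and a difference was not detectable at this depth.

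Across the 9 tested members, none passed an adjusted p of 0.05 (edgeR quasi-likelihood test, Benjamini-Hochberg over all 12911 genes), and 0.349% of all genes did. DESeq2 and limma voom called 0 members as well. At the cutoff that the study used, an unadjusted p under 0.05 with a log2 fold change of 0.5 or more in either direction, 1 of 9 members was called, Tlr2, against 4.83% of all genes. An unadjusted p under 0.05 was found for 2 members, Tlr1 and Tlr2, against 12.0% of all genes. The genotypes did not overlap for 1 member, Tlr1, against 7.59% of all genes. Of the 9 members, 6 had a log2 fold change below 0, with a median of -0.13, against 51.5% of all genes with a median of -0.0068. All 4 tested surface members were below 0 (median -0.32). Of the 5 endosomal members, 3 were above and 2 below 0 (median 0.10).

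**Figure D2:**
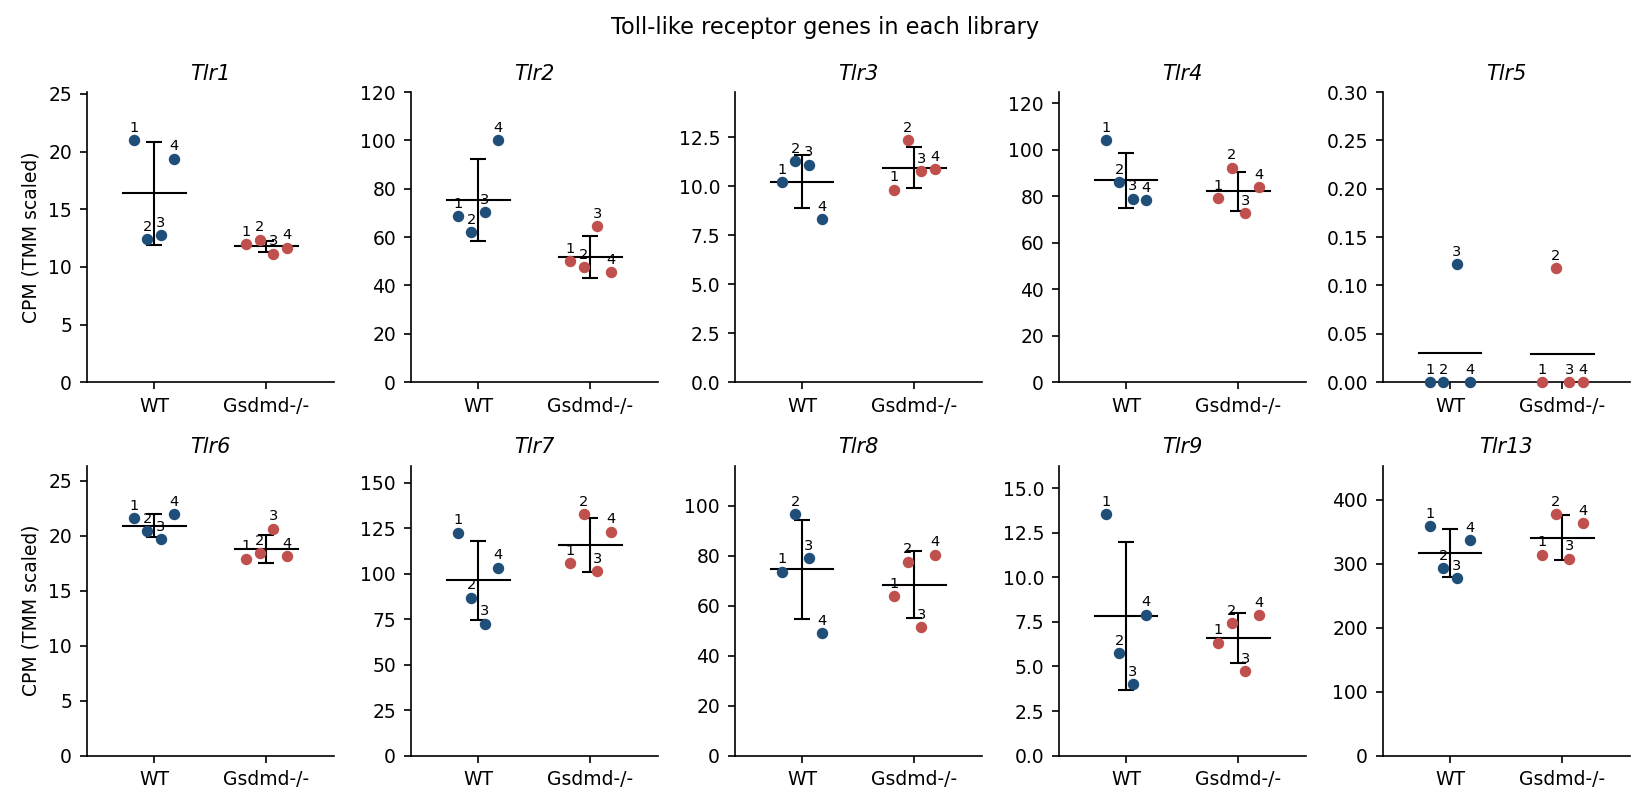
CPM of the 10 receptor genes in each library, numbered by replicate, with the mean as a horizontal line and the standard deviation as an error bar (n = 4; no error bar for Tlr5). Tlr1 in Gsdmd-/- lies between 11.2 and 12.3 CPM, just under WT 2, and the 2 highest WT libraries of Tlr1 are WT 1 and WT 4.

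Tlr2 (chr3:83836272-83841767, minus strand, 3 exons, 1 transcript) encodes the partner that all lipopeptide-binding pairs share. Its levels were 68.6, 62.0, 70.3 and 100.1 CPM in WT 1 to 4 and 49.9, 47.6, 64.6 and 45.5 CPM in Gsdmd-/- 1 to 4. WT 4 was the highest library, and Gsdmd-/- 3 was the single knockout library that reached into the WT range. The mean was 75.2 ± 16.9 CPM in WT and 51.9 ± 8.68 CPM in Gsdmd-/-, 69.0% of WT. The log2 fold change was -0.54 (SE 0.162, 95% confidence interval -0.90 to -0.18, unadjusted p = 0.00770, adjusted p = 0.241 by edgeR). An exact permutation test of the 8 values, two-sided, gave p = 0.0571, where 4 libraries against 4 can give no p below 0.0286. The unadjusted p stayed under 0.05 without each library in turn, with log2 fold changes between -0.66 without Gsdmd-/- 3 and -0.37 without WT 4. The fold fell short of the cutoff of 0.5 in 3 of these 8 fits, those without WT 4, Gsdmd-/- 2 and Gsdmd-/- 4. Without WT 2 and 3 the log2 fold change was -0.70 (adjusted p = 0.102) and without WT 1 and 4 it was -0.35 (adjusted p = 0.0895).

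Tlr1 (chr5:64924679-64933563, minus strand) encodes the partner of TLR2 for triacylated lipopeptides. Its levels were 20.97, 12.4, 12.7 and 19.4 CPM in WT 1 to 4 and 12.0, 12.3, 11.2 and 11.7 CPM in Gsdmd-/- 1 to 4. WT 1 and 4 were high, whereas WT 2 and 3 lay next to the knockout libraries, and the gap between WT 2 and the highest knockout library was 12.38 against 12.34 CPM. The mean was 16.4 ± 4.45 CPM in WT and 11.8 ± 0.502 CPM in Gsdmd-/-, a log2 fold change of -0.475 (SE 0.179, 95% confidence interval -0.87 to -0.08, unadjusted p = 0.0234, adjusted p = 0.334 by edgeR). The exact permutation test gave p = 0.0286, the smallest it can give here. The value depended on which WT libraries were used. Without WT 2 and 3 the log2 fold change was -0.78 and passed (adjusted p = 0.0121, where 1.21% of all genes tested in that fit passed), and without WT 1 and 4 it was -0.09 (adjusted p = 0.588). In the fits without a single library the unadjusted p was over 0.05 in 3 of 8, at 0.0762 without WT 1, where the log2 fold change was -0.33, 0.0617 without WT 4 and 0.0555 without Gsdmd-/- 3. WT 1 and 4 are also the WT libraries with the higher monocyte marker sums.

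Tlr6 (chr5:64952031-64960097, minus strand), whose product pairs with TLR2 for diacylated lipopeptides, lies 18467 bases from Tlr1 on the same strand. It had the lowest coefficient of variation in WT of the tested members, with 19.7 to 22.0 CPM in WT and 17.9 to 20.7 CPM in Gsdmd-/-. The ranges overlapped through Gsdmd-/- 3 alone, the library in which Tlr2 was also highest among the knockouts. It differed by a log2 fold change of -0.16 (95% confidence interval -0.36 to 0.05, adjusted p = 0.555 by edgeR). Tlr1 and Tlr6 are similar in sequence. Of the 100-base windows of their transcripts, 7.89% for Tlr1 and 7.09% for Tlr6 were identical to a window of the other gene, so reads there could have been given to either gene, depending on a counting method that is not given in the sources used here. For Tlr3, 3.32% of the windows were shared with Gm45542, which had 0 counts in all libraries, and for the other members no window was shared.

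Tlr4 (chr4:66827584-66930284, plus strand), the lipopolysaccharide receptor gene, had 104, 86.0, 79.0 and 78.2 CPM in WT 1 to 4 and 79.2, 92.3, 72.7 and 83.9 CPM in Gsdmd-/- 1 to 4. The genotypes overlapped fully apart from WT 1 at the top and Gsdmd-/- 3 at the bottom. The means were 86.8 ± 12.0 and 82.0 ± 8.21 CPM, a log2 fold change of -0.08 (95% confidence interval -0.33 to 0.17, adjusted p = 0.817 by edgeR), which became 0.02 without WT 1.

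The bases before the start of Tlr2 and Tlr1, the members with the lowest p, and of Tlr13, the most abundant, are printed 5′ to 3′ on the strand of the gene, from RefSeq on GRCm38.p6. RefSeq and GENCODE place the start of these genes differently, at 83841608 and 83841767 for Tlr2, 64933558 and 64933563 for Tlr1, and 106143275 and 106143204 for Tlr13. The RefSeq windows hold the 250 bases before the RefSeq start, and the part that also lies before the GENCODE start, from which the gene positions given here come, is shown. This is chr3:83841768-83841858 for Tlr2 (minus), chr5:64933564-64933808 for Tlr1 (minus) and chrX:106143025-106143203 for Tlr13 (plus). Capitals mark matches, on either strand, to 5 motifs that were chosen after the windows had been seen. They are the NF-kB consensus of 10 bases, given here by name, and the letters GAGGAA for a site of the PU.1 type. The others are TGANTCA for AP-1, TTGCNNAA for the C/EBP proteins and TATAAA for a TATA box, none of which matched in the windows of these genes.
Tlr2: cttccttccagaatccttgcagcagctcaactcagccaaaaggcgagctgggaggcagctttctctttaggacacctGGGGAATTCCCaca
Tlr1: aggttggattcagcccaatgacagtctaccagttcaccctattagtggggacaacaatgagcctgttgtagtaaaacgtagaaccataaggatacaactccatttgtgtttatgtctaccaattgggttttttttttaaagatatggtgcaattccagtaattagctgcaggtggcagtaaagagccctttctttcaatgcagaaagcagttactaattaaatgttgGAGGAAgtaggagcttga
Tlr13: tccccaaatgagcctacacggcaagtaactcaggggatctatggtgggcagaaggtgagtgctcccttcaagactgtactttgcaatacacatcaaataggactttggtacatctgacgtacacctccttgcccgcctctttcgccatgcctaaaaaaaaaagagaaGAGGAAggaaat
Tlr2 held a pair of overlapping NF-kB matches that begin 14 and 13 bases before the GENCODE start, or 173 and 172 bases before the RefSeq start. Tlr1 held a GAGGAA 18 bases before the GENCODE start (RefSeq 23), and the window of its second RefSeq start, which lies inside the GENCODE gene, held no match. Tlr13 held a GAGGAA 12 bases before the GENCODE start (RefSeq 83). NF-kB is switched on by these receptors, and PU.1 is a master regulator of macrophages. Over the 32851 RefSeq windows of 250 bases, 3.90% held the NF-kB consensus and 23.3% held GAGGAA. Over the 10 windows that were found for 8 members, 2 held the NF-kB consensus (Tlr2 and Tlr3) and 4 held GAGGAA (Tlr1, Tlr8, Tlr9 and Tlr13). The AP-1 letters were in the window of Tlr9 and in 6.75% of all windows. The C/EBP letters were in 3 member windows (Tlr3, Tlr6 and Tlr8) and in 9.56% of all, and the TATA letters in 2 (Tlr6 and Tlr8) and in 12.4% of all. These matches are letters in a window and were not tested as binding sites.

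Tlr13 (chrX:106143204-106160493, plus strand) had 359, 293, 277 and 337 CPM in WT 1 to 4 and 314, 378, 308 and 364 CPM in Gsdmd-/- 1 to 4. Every library held at least 277 CPM and the genotypes overlapped. The means were 317 ± 37.9 and 341 ± 35.2 CPM, a log2 fold change of 0.11 (95% confidence interval -0.14 to 0.35, adjusted p = 0.749 by edgeR). The sign turned to -0.03 without WT 2 and 3, the lowest WT libraries for this gene, and the value was 0.26 without WT 1 and 4.

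Tlr7 (chrX:167304929-167330558, minus strand), a receptor gene for single-stranded RNA, had 123, 86.9, 72.7 and 103 CPM in WT 1 to 4 and 106, 133, 101 and 123 CPM in Gsdmd-/- 1 to 4. The knockout libraries lay with WT 1 and 4, and WT 2 and 3 were lower than all of them. Its log2 fold change of 0.26 was the highest in the family (SE 0.157, 95% confidence interval -0.08 to 0.61, unadjusted p = 0.121, adjusted p = 0.555 by edgeR). Against WT 2 and 3 alone it was 0.54 and passed (adjusted p = 0.0143, where 20.7% of all genes tested in that fit passed), and against WT 1 and 4 alone it was 0.03 (adjusted p = 0.960).

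Tlr8 (chrX:167242696-167264329, minus strand) lies 40599 bases from Tlr7 and is its closest relative in the family, but the pair did not vary together. Tlr8 had 73.6, 96.7, 78.9 and 48.9 CPM in WT 1 to 4 and 63.9, 77.6, 51.4 and 80.4 CPM in Gsdmd-/- 1 to 4. WT 2 was its highest library and WT 4 its lowest, and all knockout libraries lay within this range. It differed by a log2 fold change of -0.13 (95% confidence interval -0.57 to 0.32, adjusted p = 0.846 by edgeR), 0.15 without WT 2 and 3 and -0.36 without WT 1 and 4 (adjusted p = 0.131). The ratio of Tlr7 to Tlr8, both per kilobase of exon, was 1.46 and 1.86 in WT 1 and 4, 0.789 and 0.809 in WT 2 and 3, and 1.35 to 1.73 in Gsdmd-/-. The balance of the neighbouring genes therefore spread more widely within WT than within Gsdmd-/-.

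Tlr3 (chr8:45395665-45411080, minus strand), the double-stranded RNA receptor gene, had 8.33 to 11.3 CPM in WT and 9.82 to 12.3 CPM in Gsdmd-/-, with a log2 fold change of 0.10 (95% confidence interval -0.20 to 0.39, adjusted p = 0.815 by edgeR). Tlr9 (chr9:106222598-106226883, plus strand), the CpG DNA receptor gene, had the highest coefficient of variation of the tested members in both genotypes. It had 13.6, 5.73, 4.03 and 7.90 CPM in WT 1 to 4 and 6.33, 7.44, 4.75 and 7.88 CPM in Gsdmd-/- 1 to 4. WT 1 and 4 lay above all knockout libraries and WT 3 below them. Its log2 fold change of -0.24 had a 95% confidence interval of -0.98 to 0.49 (adjusted p = 0.816 by edgeR), which holds changes of either direction. It was 0.17 without WT 1, -0.71 without WT 2 and 3 (unadjusted p = 0.0192, adjusted p = 0.250) and 0.43 without WT 1 and 4 (adjusted p = 0.202).

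**Figure D3:**
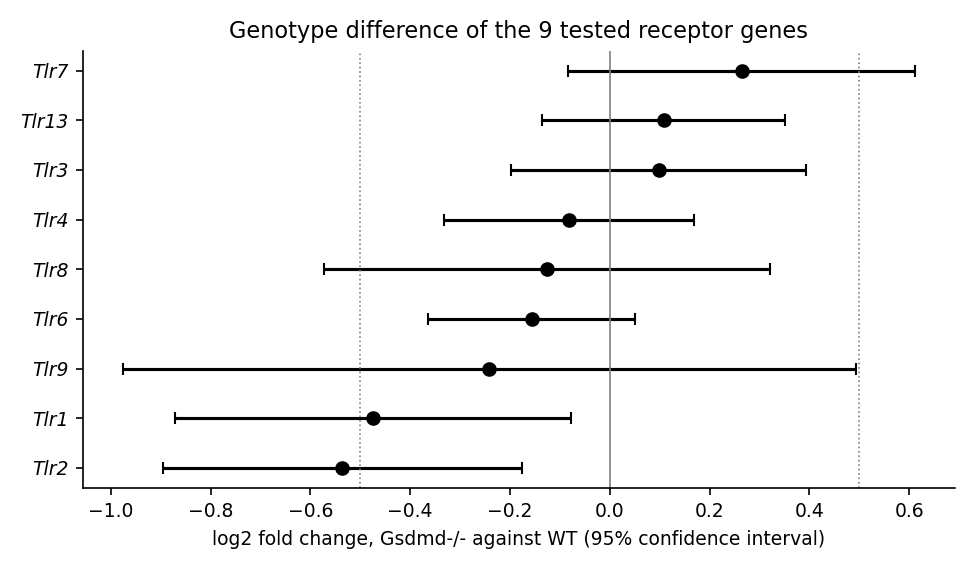
Log2 fold change of the 9 tested receptor genes in Gsdmd-/- against WT, with 95% confidence intervals from the edgeR fit and dotted lines at an absolute value of 0.5. The intervals of Tlr1 and Tlr2 lie below 0, those of the other 7 genes cross 0, and no gene passed after adjustment.

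For several members the WT libraries fell into pairs, WT 1 with WT 4 and WT 2 with WT 3, a split that was seen in the data and is given without a test. In 7 of 9 members both of WT 1 and 4 lay on the same side of both of WT 2 and 3, as was the case for 58.1% of all genes tested. The mean of WT 1 and 4 over the mean of WT 2 and 3 was 2.20 for Tlr9, 1.61 for Tlr1, 1.42 for Tlr7, 1.22 for Tlr13 and 1.09 for Tlr6. Tlr8 at 0.697 and Tlr3 at 0.828 went the other way, and Tlr2 and Tlr4 were not separated. Gsdmd-/- libraries lay near WT 2 and 3 for Tlr1 and near WT 1 and 4 for Tlr7, so neither pair of WT libraries was the closer one for every member. The monocyte markers divided the WT libraries in the same way, and their part in these differences was not tested. The coefficient of variation was larger in WT than in Gsdmd-/- for 8 of 9 members, all but Tlr6, and for 71.8% of all genes tested. Its median over the members was 22.3% in WT and 10.3% in Gsdmd-/-.

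**Figure D4:**
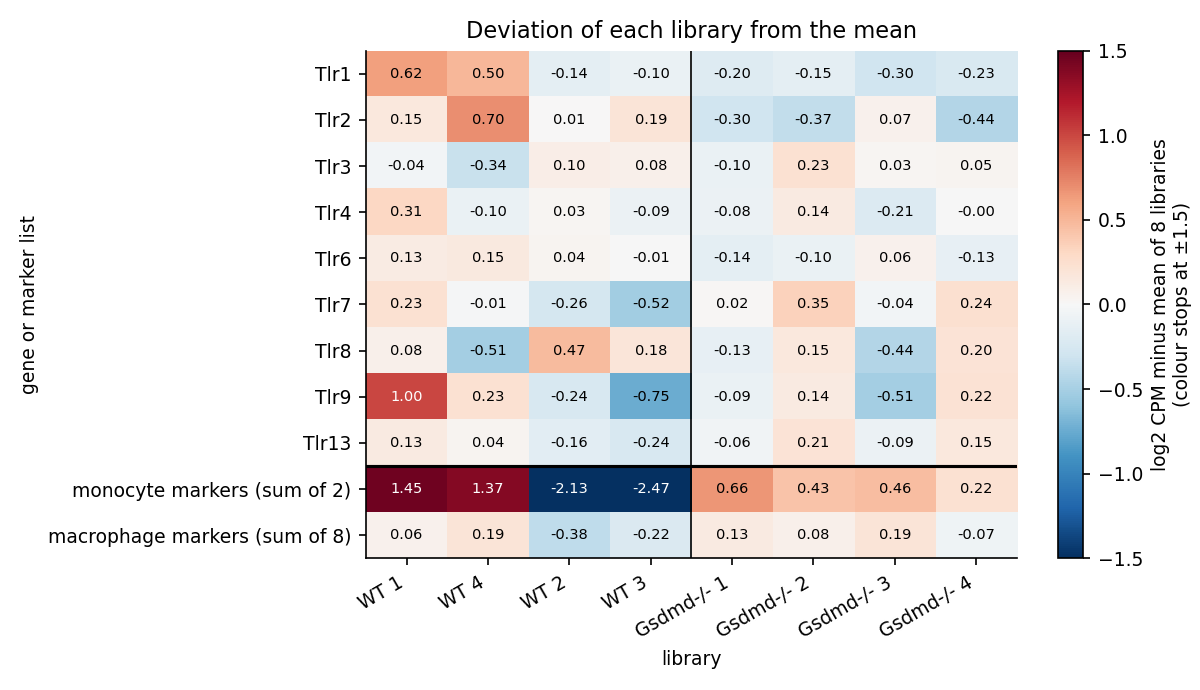
Log2 CPM of each tested receptor gene in each library minus its mean over the 8 libraries, with the summed monocyte and macrophage markers beneath, red for higher and blue for lower. WT 1 and 4 stand beside each other at the left, followed by WT 2 and 3, where the monocyte markers are lowest and Tlr7 and Tlr9 lie below their means.

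The sum of the family did not separate the genotypes, and its make-up did so in some measures only. For comparison, the genotypes did not overlap for 7.59% of all single genes tested. All 10 genes together had 626 to 794 CPM in WT and 645 to 779 CPM in Gsdmd-/-. The 5 surface genes together had 181 to 220 CPM in WT (199 ± 20.9) and 159 to 171 CPM in Gsdmd-/- (165 ± 6.32), without overlap, and Tlr2 and Tlr4 made up most of both sums. The endosomal genes held 69.7% to 73.2% of the family's CPM in WT and 73.8% to 78.7% in Gsdmd-/-. Per kilobase of exon, which weighs the genes differently, these shares overlapped narrowly, at 67.2% to 72.7% and 72.4% to 78.6%. Tlr13 alone held 43.5% to 46.4% of the family's CPM in WT and 47.7% to 48.8% in Gsdmd-/-, and 41.2% to 43.4% against 45.4% to 47.0% per kilobase of exon. These sums and shares were formed after the values were known and are given without a test.

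Over the 8 libraries, members varied together in some pairs and in opposite directions in others. Pearson's r of log2 CPM, which rests on 8 libraries that hold both genotypes and the split within WT and is given as a description, was highest at 0.96 for Tlr7 and Tlr13 and 0.89 for Tlr2 and Tlr6. Tlr9 followed with 0.79 against both Tlr4 and Tlr13, 0.75 against Tlr7 and 0.71 against Tlr1, while Tlr1 and Tlr6 had 0.72, Tlr3 and Tlr8 0.69, and Tlr1 and Tlr2 0.68. It was -0.11 for the neighbours Tlr7 and Tlr8 and lowest, at -0.68, for Tlr2 and Tlr3. Outside the family, the gene most like Tlr13 was Arl5a (r = 0.98), the gene most like Tlr7 was Zfp28 (r = 0.99), the gene most like Tlr4 was Prr12 (r = 0.98) and the gene most like Tlr8 was Cds2 (r = 0.99). An r above 0.9 was reached by 59 genes for Tlr13, 130 for Tlr7, 150 for Tlr4 and 360 for Tlr8, so the likeness of a single gene says little.

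Genes that work with the receptors were examined as a list of 50, of which 46 had enough reads to be tested. None passed an adjusted p of 0.05 by edgeR, and 0.349% of all genes did, while limma voom called 0. DESeq2 called 2 of the 46, against 2.26% of all genes by that tool. With an unadjusted p under 0.05, 7 of 46 were found, all of them lower in Gsdmd-/-, against 12.0% of all genes at this p in either direction. At the study's cutoff for p and fold, 2 of 46 were called, both lower, against 4.83% of all genes in either direction. The genotypes did not overlap for 4 of 46, against 7.59% of all genes. Of the 46 genes, 33 were below and 13 above 0, with a median log2 fold change of -0.09. Of all genes, 51.5% were below 0, with a median of -0.0068. For some of the 46 the sign turned with the WT libraries used, as given below.

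Of the co-receptors, which hand ligands to the receptors, none of 5 tested had an unadjusted p under 0.05, against 12.0% of all genes. With 5 genes, a count of 0 says little beside this share. Cd14, which transfers lipopolysaccharide, had 36.6 ± 12.9 CPM in WT and 34.5 ± 3.21 CPM in Gsdmd-/- (log2 fold change -0.09, adjusted p = 0.906 by edgeR). Ly96, which encodes the MD-2 subunit of the TLR4 complex, had 6.68 ± 1.24 and 6.66 ± 0.657 CPM (adjusted p = 0.995 by edgeR). Both turned with the WT libraries used, Cd14 from -0.40 without WT 2 and 3 (adjusted p = 0.284) to 0.32 without WT 1 and 4 (adjusted p = 0.105), and Ly96 from -0.19 (adjusted p = 0.696) to 0.21 (adjusted p = 0.393). Ly86, named after its values were seen, had the highest log2 fold change of the 46 genes, 0.41 (adjusted p = 0.646 by edgeR). It was -0.11 without WT 2 and 3 (adjusted p = 0.804) and 1.21 without WT 1 and 4 (adjusted p = 0.000248, where 20.7% of all genes passed). Cd36, a scavenger receptor that works with TLR2 and TLR6, had 1088, 2780, 2623 and 1457 CPM in WT 1 to 4 and 1062 to 1641 CPM in Gsdmd-/- (log2 fold change -0.50, adjusted p = 0.530 by edgeR). WT 2 and 3 were its high libraries, and the log2 fold change was -0.95 without WT 1 and 4 (adjusted p = 0.00219) and 0.14 without WT 2 and 3 (adjusted p = 0.840). Unc93b1, which carries the endosomal receptors from the endoplasmic reticulum, had 425 ± 35.5 CPM in WT and 388 ± 16.3 CPM in Gsdmd-/- (log2 fold change -0.13, adjusted p = 0.584 by edgeR). It was -0.22 without WT 2 and 3 (adjusted p = 0.309) and -0.04 without WT 1 and 4 (adjusted p = 0.746). None of the 6 trafficking genes had an unadjusted p under 0.05, against 12.0% of all genes, and here too a count of 0 says little.

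All 5 tested adaptor genes were below 0, with a median log2 fold change of -0.20, against 51.5% of all genes below 0. Ticam2 was the nearest to 0, at -0.03 (adjusted p = 0.957 by edgeR), and turned to 0.17 without WT 2 and 3 (adjusted p = 0.744). An unadjusted p under 0.05 was found for 1 of the 5 adaptor genes, against 12.0% of all genes. That gene was Myd88, the adaptor of most Toll-like receptors, with 80.5, 60.9, 69.4 and 92.2 CPM in WT 1 to 4 and 52.7, 50.6, 72.2 and 61.2 CPM in Gsdmd-/- 1 to 4. As for Tlr2 and Tlr6, Gsdmd-/- 3 was the highest knockout library, and it reached into the WT range, as Gsdmd-/- 4 just did. The log2 fold change was -0.36 (SE 0.149, unadjusted p = 0.0372, adjusted p = 0.380 by edgeR), -0.55 without WT 2 and 3 (adjusted p = 0.124) and -0.14 without WT 1 and 4 (adjusted p = 0.497). Ticam1, which encodes TRIF, the adaptor of TLR3 and of internalized TLR4, had 38.7 ± 5.23 and 32.8 ± 3.61 CPM (log2 fold change -0.24, adjusted p = 0.488 by edgeR), with -0.09 without WT 2 and 3 (adjusted p = 0.851) and -0.38 without WT 1 and 4 (adjusted p = 0.0321).

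Among the 16 kinases and ubiquitin ligases, 3 had an unadjusted p under 0.05, all lower in Gsdmd-/-, against 12.0% of all genes in either direction, and these were named after their values were seen. Tab1, a subunit of the TAK1 kinase complex, had 17.7 to 22.4 CPM in WT and 15.3 to 16.4 CPM in Gsdmd-/-, without overlap (log2 fold change -0.40, unadjusted p = 0.00318, adjusted p = 0.176 by edgeR). Traf3, a ubiquitin ligase of the interferon branch, had 45.1 to 49.3 and 32.6 to 42.9 CPM, also without overlap (log2 fold change -0.23, adjusted p = 0.398 by edgeR). Irak4, the first kinase after MyD88, differed by -0.21 on the log2 scale (adjusted p = 0.398 by edgeR), with -0.09 without WT 2 and 3 (adjusted p = 0.786) and -0.33 without WT 1 and 4 (adjusted p = 0.0193), and its ranges overlapped. The Tab1 log2 fold change was -0.32 without WT 2 and 3 (adjusted p = 0.264) and -0.48 without WT 1 and 4 (adjusted p = 0.00742, where 20.7% of all genes passed).

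Of the 7 tested inhibitors of the pathway, 1, Tnfaip3, was called at the cutoff with a fold, against 4.83% of all genes. An unadjusted p under 0.05 was found by edgeR for 2 of 7, Tnfaip3 and Rnf216, against 12.0% of all genes. The genotypes did not overlap for the same 2, against 7.59% of all genes. Tnfaip3 encodes A20, an enzyme that removes ubiquitin chains and shuts off NF-kB, and is itself a target of NF-kB. It had 76.0, 42.6, 41.1 and 75.1 CPM in WT 1 to 4 and 40.3, 39.2, 40.9 and 39.9 CPM in Gsdmd-/- 1 to 4. Its pattern was that of Tlr1, with WT 1 and 4 high, WT 2 and 3 just above the knockouts, and little spread among the knockouts. The log2 fold change was -0.55 (SE 0.200, unadjusted p = 0.0199, adjusted p = 0.319 by edgeR). It was -0.92 without WT 2 and 3 (adjusted p = 0.00183) and -0.07 without WT 1 and 4 (adjusted p = 0.606). With limma voom and with the replicate block it was -0.49, short of the cutoff for the fold. Rnf216, a ubiquitin ligase that lowers receptor levels, was named after its values were seen. It had 74.7 to 79.3 CPM in WT and 57.4 to 66.3 CPM in Gsdmd-/-, without overlap (log2 fold change -0.28, unadjusted p = 0.00458, adjusted p = 0.208 by edgeR). Irak3, a kinase-like inhibitor, had 19.8 ± 5.46 and 18.3 ± 2.64 CPM (log2 fold change -0.11, adjusted p = 0.860 by edgeR), with -0.42 without WT 2 and 3 (adjusted p = 0.224) and 0.28 without WT 1 and 4 (adjusted p = 0.197).

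The transcription factors held no gene with an unadjusted p under 0.05 among 6 tested, against 12.0% of all genes. With 6 genes, a count of 0 says little beside this share. Irf7, which turns on interferon genes after TLR7 and TLR9 and is itself induced by interferon, had 18.8, 1.46, 2.13 and 34.4 CPM in WT 1 to 4 and 10.5, 9.27, 6.59 and 5.70 CPM in Gsdmd-/- 1 to 4. WT 1 and 4 lay above and WT 2 and 3 below all knockout libraries, and the mean of WT 1 and 4 was 14.8 times that of WT 2 and 3. With all libraries the direction depended on the method, with a log2 fold change of -0.82 by edgeR (adjusted p = 0.728), 0.22 by limma voom (adjusted p = 0.944) and 0.0032 with the replicate block (adjusted p = 0.999). By edgeR it was -1.72 without WT 2 and 3 (adjusted p = 0.0178) and 2.16 without WT 1 and 4 (adjusted p = 0.00121). Irf5, a partner of MyD88 in cytokine gene induction, had 238 ± 72.9 and 223 ± 20.8 CPM (log2 fold change -0.10, adjusted p = 0.883 by edgeR). It differed by -0.44 on the log2 scale without WT 2 and 3 (adjusted p = 0.0917) and by 0.34 without WT 1 and 4 (adjusted p = 0.0386). The 2 mouse receptor genes outside the list of 10 were low. Tlr11, which binds the profilin of Toxoplasma, had 1.80 ± 0.274 CPM in WT and 1.15 ± 0.350 CPM in Gsdmd-/- (13 to 33 counts per library, log2 fold change -0.64, unadjusted p = 0.0418, adjusted p = 0.392 by edgeR), and Tlr12 had 2 to 19 counts per library and was not tested.

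**Figure D5:**
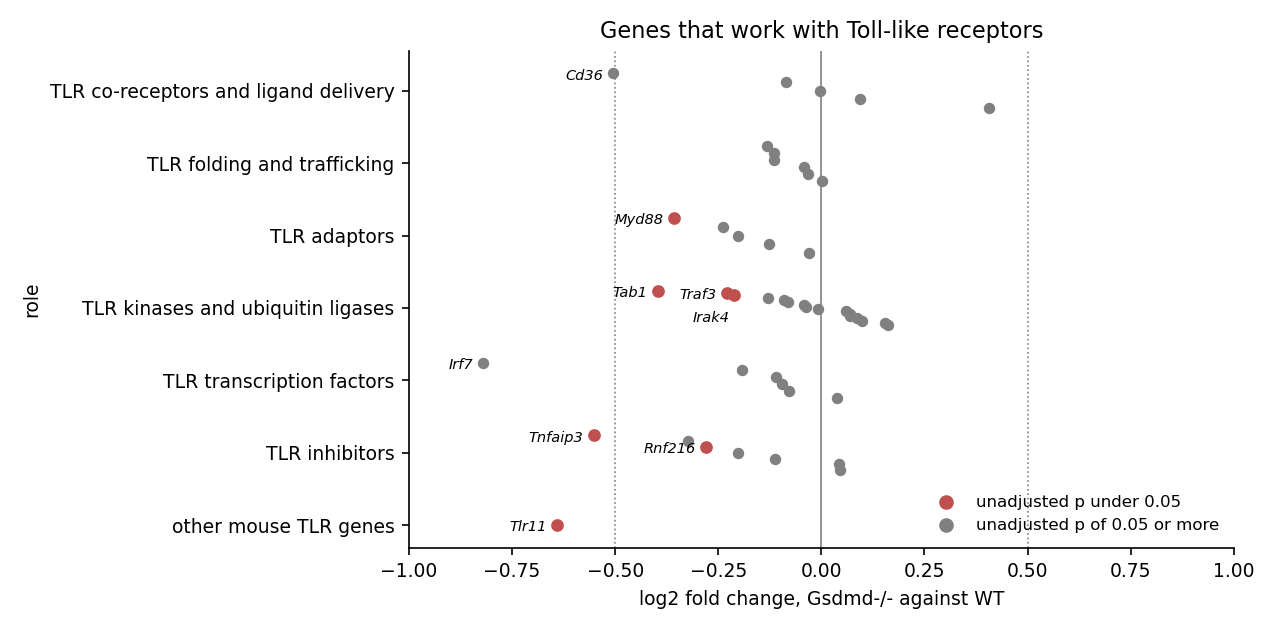
Log2 fold change in Gsdmd-/- against WT of the 46 tested genes that work with Toll-like receptors, grouped by role, with dotted lines at an absolute value of 0.5. The 7 genes in red, with an unadjusted p under 0.05, all lie below 0, and none of the 46 passed after adjustment.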

How the data were processed

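RNA was extracted with TRIzol from untreated BMDMs of 4 WT and 4 Gsdmd-/- samples and sequenced from TruSeq libraries. The authors deposited read counts per gene, not normalized, in 1 table, with genes listed by Ensembl identifier and symbol. The submitters' processing notes name mm10 as the genome build. The aligner, the counting tool, its strand setting and the annotation are not given in the sources used here. Positions and lengths were taken from GENCODE M21 (GRCm38), which holds 54409 of the 54532 genes.

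Counts were filtered with filterByExpr, scaled by TMM and tested by the edgeR 4.0.16 quasi-likelihood test (R 4.3.3), two-sided, in a model that held genotype alone, with Benjamini-Hochberg adjustment over all genes tested. Intervals are at 95%. Values of single genes were also compared by an exact permutation test. Log2 CPM for correlations used a prior count of 2. Alternatives were limma voom (limma 3.58.1), DESeq2 1.42.0, RLE size factors, no filter on low counts, at least 10 counts in every library, a block for the replicate number, a log2 fold change of at least 1, coding length, and fits without each library, without WT 2 and 3 and, added after seeing the data, without WT 1 and 4. The test was also run on simulated counts.

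The members, the pathway list, the marker lists and the rule for naming genes were chosen with earlier results of these data known. A listed monocyte marker is not reported here, and the monocyte sum was formed without it. The rule names all members, Gsdmd, pathway genes called at either cutoff, 11 further pathway genes, and for each of the 4 members with the highest mean CPM the most correlated gene. Promoter windows came from RefSeq (GRCm38.p6) for 8 of 10 members.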

Additional observations from a re-analysis of the deposited data

How the results depend on the processing

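Calls of members were kept under limma voom, DESeq2, RLE size factors, either other filter on low counts and the replicate block, with none at an adjusted p under 0.05 and 1, Tlr2, at the study's cutoff for p and fold. At an adjusted p under 0.05, 1 member was called without WT 2 and 3 (Tlr1) and 1 without WT 1 and 4 (Tlr7). In these fits 1.21% and 20.7% of all genes passed. With the fold, 3 of 9 members were called without WT 2 and 3 (Tlr1, Tlr2 and Tlr9), against 823 of 13288 of all genes. Without WT 1 and 4, 1 of 9 was called (Tlr7, higher in Gsdmd-/-, in place of Tlr2), against 2214 of 13432. Between 0 and 2 members were called when each library was left out in turn, against 469 to 1022 of all genes. None was called where the log2 fold change had to reach 1, against 199 of all genes. The counts of 0 came without WT 4 and without Gsdmd-/- 4, those of 2 without WT 2 and without WT 3 (Tlr1 and Tlr2), and without Gsdmd-/- 2 the call was Tlr1 in place of Tlr2.

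Of the pathway genes, 2 passed an adjusted p of 0.05 by DESeq2 (Tab1 and Rnf216), 2 without WT 2 and 3 (Tnfaip3 and Irf7) and 10 without WT 1 and 4, a fit in which 2778 of 13432 genes passed. With the fold, 1 was called by limma voom (Tlr11), 1 by DESeq2 (Tnfaip3), 4 without WT 2 and 3, 5 without WT 1 and 4, between 1 and 2 without each library in turn, where the call without WT 1 was Cd36 and that without WT 4 was Ly86, which was higher in Gsdmd-/-, and 0 where the log2 fold change had to reach 1. Over all genes, the count at an adjusted p under 0.05 was 45, 292 by DESeq2, 109 without a filter, 161 without WT 2 and 3, and 14 to 84 without each library. At the cutoff with the fold it was 623, 559 by limma voom, 616 by DESeq2, 568 with the replicate block, 1204 without a filter, 823 of 13288 without WT 2 and 3, 2214 of 13432 without WT 1 and 4, 469 to 1022 without each library, and 199 at a log2 fold change of at least 1.

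The log2 fold change turned its sign for Tlr3 without WT 1 and 4 (-0.0332), for Tlr4 in the fits without each library (-0.148 to 0.0172), for Tlr8 without WT 2 and 3 (0.15) and without each library (-0.28 to 0.0178), for Tlr9 without WT 1 and 4 (0.43) and without each library (-0.46 to 0.17), and for Tlr13 without WT 2 and 3 (-0.0313). Tlr1, Tlr2, Tlr6 and Tlr7 kept their sign in all 16 alternatives. The cause of these changes was not tested.

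WT and Gsdmd-/- libraries share replicate numbers, but nothing in the labels states that these numbers pair them. The correlations of same-numbered deviations from the group means were 0.03, 0.18, 0.04 and -0.20, and not every library correlated best with its own number. These correlations cannot decide whether libraries of the same number were prepared together, as the WT deviations also hold the split within WT. With the replicate block, 0 pathway genes were called with the fold (Tnfaip3 had -0.49 at an unadjusted p of 0.0225 and Tlr11 -0.66 at 0.0798), and 25 of all genes passed an adjusted p of 0.05. Depth limits Tlr5, Tlr11 and Tlr12, which had at most 33 counts in a library.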
